A study of Mus musculus with 3 samples.

Results

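The RNA levels of 10 imprinted growth regulator genes were followed in sorted cells of mouse back skin. They were taken by symbol as imprinted genes known from somatic stem cells, and all 10 of 10 were found, each with 1 entry, among the 44548 genes left after keeping 1 entry per symbol. The RNA came from 3 libraries of 1 group, Alpha6+/Sca1- cells of wild-type (WT) mice at an age of 56 days, when the hair follicles are in their second telogen, a resting phase. Alpha6 is an integrin on the basal side of skin epithelial cells, and Sca1 is a surface protein of the epithelium between follicles and in their upper part. Only the antibody to the integrin is named in the growth protocol. No genetic change, agent or second group is labelled, and comparisons were therefore made between genes within libraries. The labels speak of biological duplicates while there are 3 samples, so how many collections of cells the 3 libraries stand for is not known, and each SD and p measures the spread between libraries, which may in part be technical.

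Imprinted genes are transcribed mainly from the maternal or mainly from the paternal chromosome, through DNA methylation laid down in the germ line at control regions that often serve several genes of a locus. Many of them act on fetal growth: Igf2 is a growth factor, Igf2r the receptor that removes it, and Grb10 an adaptor that dampens insulin and IGF receptor signalling. In somatic stem cells such as those of blood, muscle and lung, a group of these genes is known to be expressed in the resting stem cells. H3K27me3, the histone mark in the deposited table, is laid down by Polycomb repressive complex 2 and is associated with silent genes. Read counts per gene do not separate the parental alleles, so all levels here are sums over both.

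Depth was 29283936, 35264901 and 39198620 counts for replicates 1, 2 and 3. The labelled cell type was checked with markers: all 8 hair follicle stem cell genes and all 5 basal keratinocyte genes reached a TPM (a level per gene length, on a total common to all libraries) of at least 1 in every library, with list medians of the mean TPM of 432 and 365. Endothelial, pericyte and adipocyte lists had medians of the mean TPM of 0, 0.024 and 0.052, while 2 of 5 melanocyte, 1 of 4 Schwann cell and 1 of 5 immune genes reached a TPM of 1 in every library. Replicate 1 stood apart from the others in these files: of the 13663 genes whose mean TPM reached 1, 59.6% had their highest level in it. Means without it are given beside each printed mean TPM that it moved by over 1.5 times.

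The 10 genes spanned a wide range of levels. Of these, 4 (Igf2r, Peg3, Dlk1 and Plagl1) had a TPM of at least 1 in every library, where 27% of all 44548 genes did. The order by mean TPM was Igf2r, Peg3, Dlk1, Plagl1, H19, Grb10, Mest, Ndn, Igf2 and Meg3. The ranges of neighbours in this order overlapped except between Plagl1 and H19 and between Ndn and Igf2. In these bulk samples, a low level in every cell and a higher level in few cells cannot be told apart.

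**Figure D1:**
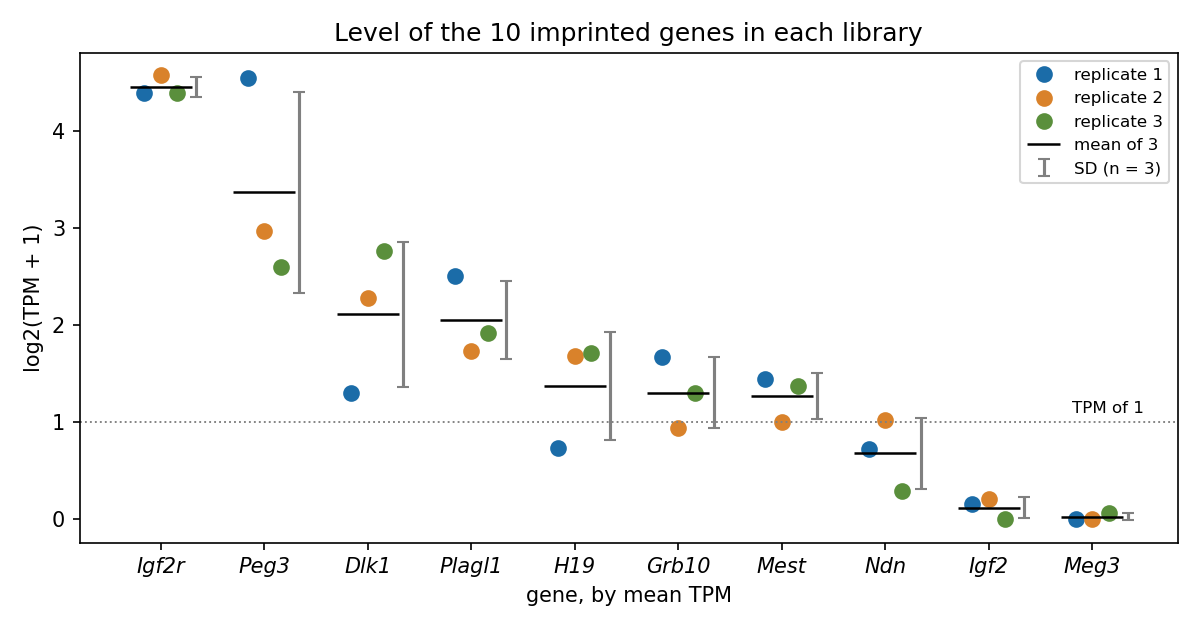
The y axis gives log2(TPM + 1) of each of the 10 genes on the x axis, with 1 point per library, a line at the mean and a bar for the SD over the 3 libraries. Igf2r sits highest with its 3 points close together, Peg3 has replicate 1 far above the other libraries, and Igf2 and Meg3 lie at the bottom.

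The receptor and growth factor arm was led by Igf2r (ENSMUSG00000023830, GRCm38 chromosome 17, 12682406 to 12769664, minus strand), which carries IGF2 and mannose 6-phosphate tagged enzymes to the lysosome. Its levels were 20.0, 22.7 and 20.0 TPM in replicates 1, 2 and 3, from 2030, 2939 and 2906 counts. The mean was 20.9 ± 1.61 TPM (SD, n = 3). The libraries lay close together, and its SD on the log2(TPM + 1) scale of 0.10 compares with a median SD of 0.26 over 4924 genes within a factor of 2 of its level. In contrast, Igf2 (ENSMUSG00000048583, chromosome 7, 142650766 to 142666816, minus strand) rested on 7, 12 and 0 counts. These equal 0.113 TPM in replicate 1 (exact 95% Poisson interval 0.046 to 0.234), 0.153 TPM in replicate 2 (0.079 to 0.267) and 0 in replicate 3, where a count of 0 allows up to 0.034 TPM, taken as 3 counts. Such intervals and limits cover counting error only. Igf2r was above Igf2 by 4.33 ± 0.08 on the log2(TPM + 1) scale in 3 of 3 libraries (SD, n = 3, two-sided exact sign-flip permutation p = 0.25, Benjamini-Hochberg adjusted 0.25). This p is the smallest that 3 libraries allow in this test. The same holds for the other 4 contrasts of the family of 5 below, and none can reach 0.05 in it.

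Airn, the antisense transcript that starts within Igf2r and is needed for its imprinting, overlaps 28354 bases of Igf2r on the other strand. It rested on 165, 35 and 58 counts in replicates 1, 2 and 3, and was highest in replicate 1. Whether counting used strand is not stated, so reads of Igf2r and Airn in this stretch cannot be told apart. The Airn counts were small beside those of Igf2r in each library.

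By the rule of the smallest largest difference over the 3 libraries, the genes with levels most like those of Igf2r were Bbc3, Dusp28 and Acap3, with largest differences of 0.03, 0.05 and 0.05 on the log2(TPM + 1) scale. This likeness rests on 3 libraries, and 256 genes lay within 0.25 of Igf2r in all of them.

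The long non-coding RNA H19 (ENSMUSG00000000031, chromosome 7, 142575529 to 142578143, minus strand) is transcribed from the maternal chromosome next to Igf2 and shares its enhancers. It had 0.665, 2.22 and 2.27 TPM in replicates 1, 2 and 3, from 17, 72 and 83 counts. The exact 95% Poisson interval of replicate 1, from 0.387 to 1.06 TPM, lay below those of replicates 2 (1.73 to 2.79) and 3 (1.81 to 2.81), so replicate 1 was lower beyond counting error. H19 was above Igf2 by 1.26 ± 0.60 on the log2(TPM + 1) scale in 3 of 3 libraries (SD, n = 3, exact sign-flip permutation p = 0.25, adjusted 0.25).

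Dlk1 and Meg3 are the paternally and maternally expressed genes at the start of a cluster on chromosome 12. Dlk1 (ENSMUSG00000040856, 109452823 to 109463336, plus strand) encodes a membrane protein related to Notch ligands that restrains differentiation of several progenitor cells. It had 1.46, 3.83 and 5.78 TPM in replicates 1, 2 and 3, from 89, 297 and 504 counts, and the 3 exact 95% Poisson intervals (1.17 to 1.80, 3.41 to 4.30 and 5.28 to 6.30 TPM) did not overlap. The highest library was 3.96 times the lowest. Replicate 1 was lower than the mean of the others by a log2(TPM + 1) difference of -1.22, below all but 4.68% of 3246 genes at its level, whose median difference was 0.44. Meg3 (ENSMUSG00000021268, 109541001 to 109571726, plus strand), a long non-coding RNA, rested on 1, 1 and 14 counts, or 0.0051, 0.0040 and 0.050 TPM, so its mean of 0.020 TPM falls to 0.0046 without replicate 3. Meg3 was below Dlk1 with a log2(TPM + 1) difference of -2.08 ± 0.72 in 3 of 3 libraries (SD, n = 3, exact sign-flip permutation p = 0.25, adjusted 0.25).

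Replicate 1 was also never the highest library for the markers of the sorted cells themselves: 0 of 8 hair follicle stem cell genes, which summed to 24870, 31896 and 30057 TPM in replicates 1, 2 and 3, and 0 of 5 basal keratinocyte genes, which summed to 19693, 28990 and 25677 TPM. Markers of dermal cells were read beside them. Of the 8 fibroblast markers, 3 had a TPM of at least 1 in every library, and none of these 3 was highest in replicate 1. The summed level of the fibroblast list was 23.5, 54.5 and 51.5 TPM in replicates 1, 2 and 3. It was carried by the collagen genes Col1a1, with 7.36, 21.6 and 23.3 TPM, and Col1a2, with 10.0, 23.2 and 16.7 TPM, and by Thy1, with 5.48, 9.22 and 11.1 TPM. The dermal papilla list summed to 28.1, 58.6 and 48.3 TPM, nearly all of it Crabp1, with 28.1, 58.6 and 47.9 TPM. The defining fibroblast genes Lum and Dpt were at 0 counts in every library, and Dcn had 5, 10 and 8 counts. Corin, a defining gene of the dermal papilla, had 1, 0 and 0. The collagen gene Col3a1 of the fibroblast list had 3, 1 and 7 counts. Pdgfra, another fibroblast marker, ran the other way, with 0.342, 0.153 and 0.220 TPM, highest in replicate 1. Col1a1, Col1a2, Thy1, Crabp1 and the summed marker levels of the sorted cells were thus lowest in replicate 1 as Dlk1 and H19 were. Their part in the levels of Dlk1 and H19 was not tested. In replicate 1, Krt15 gave 19607 of the 24870 TPM of the stem cell sum. Of the 8 stem cell genes, Lhx2, Nfatc1 and Tbx1 were lowest in replicate 3 and the others in replicate 1. The Meg3 counts of replicate 3 stood beside 44 counts of Rian in that library, a non-coding RNA of the same cluster with 0 and 6 counts in the other libraries, and beside 10 counts of Igf1 and 13 of Rspo2, both at 0 in the other libraries. Rian, Igf1, Rspo2, Pdgfra, Lum, Dpt, Dcn and Corin were named here after their values were seen.

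**Figure D2:**
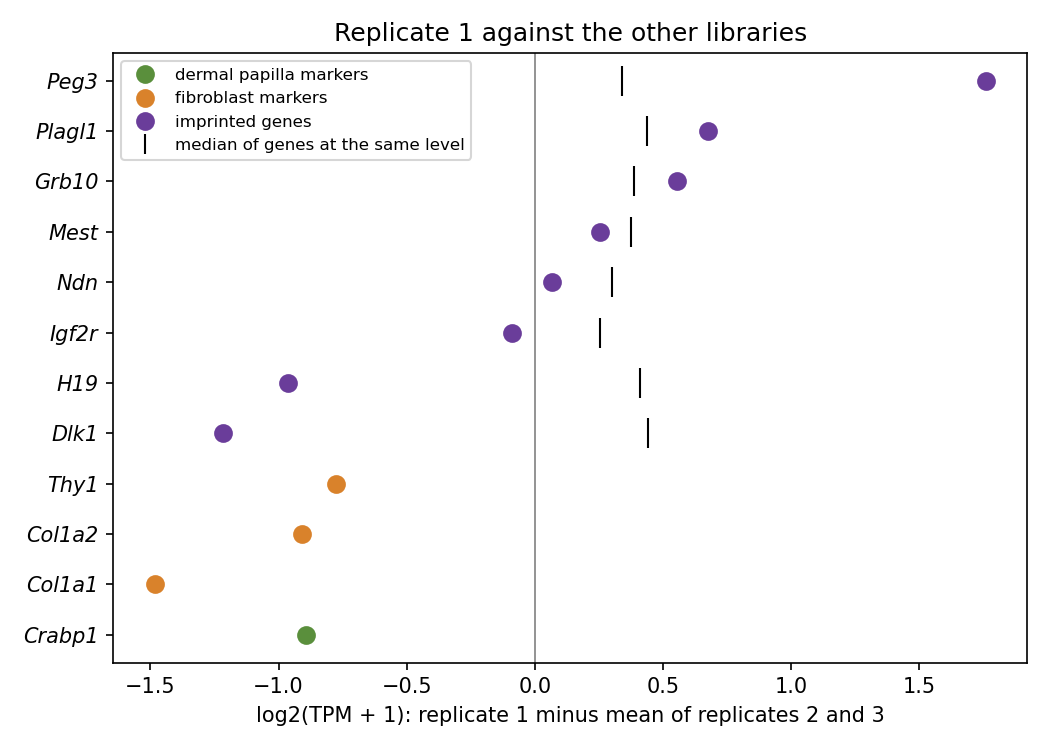
The x axis gives the log2(TPM + 1) level of replicate 1 minus the mean of replicates 2 and 3, for the imprinted genes and the fibroblast and dermal papilla markers whose mean TPM reached 0.5, and the upright tick is the median of genes at the same level. Peg3 lies at 1.76, while Dlk1 at -1.22 and H19 at -0.96 lie on the same side as the 4 listed markers shown. The other fibroblast and dermal papilla markers fell below the limit of 0.5, among them Pdgfra, which was highest in replicate 1.

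Among the transcription factors, Peg3 (ENSMUSG00000002265, chromosome 7, 6703892 to 6730431, minus strand), a paternally expressed zinc finger gene, had 22.3, 6.80 and 5.05 TPM in replicates 1, 2 and 3, from 3199, 1240 and 1038 counts. Its mean was 11.4 ± 9.48 TPM (SD, n = 3), and without replicate 1 it was 5.92 TPM. Replicate 1 was the high library by 1.76 on the log2(TPM + 1) scale, above 96.3% of 4731 genes at its level, whose median difference was 0.34. Plagl1 (ENSMUSG00000019817, chromosome 10, 13060504 to 13131694, plus strand), a paternally expressed zinc finger factor that binds other imprinted loci, had 4.66, 2.33 and 2.78 TPM in the 3 libraries, with a mean of 3.26 ± 1.24 TPM (SD, n = 3). A further list, of Schwann cell genes, summed to 6.15, 3.73 and 5.43 TPM in replicates 1, 2 and 3, highest where Peg3 was highest, and its part in the level of Peg3 was not tested. Replicate 1 of Plagl1 was also the highest, by 0.68 on the log2(TPM + 1) scale, against a median of 0.44 over 3159 genes at its level. Of the 7 imprinted genes whose mean TPM reached 1, 4 were highest in replicate 1, near the 59.6% of all genes.

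Of the remaining genes, Grb10 (ENSMUSG00000020176, chromosome 11, 11930508 to 12038683, minus strand), the receptor adaptor, varied with 2.19, 0.916 and 1.46 TPM in replicates 1, 2 and 3, from 215, 114 and 205 counts. Mest (ENSMUSG00000051855, chromosome 6, 30723547 to 30748465, plus strand), a paternally expressed gene of the alpha/beta hydrolase family, had 1.72, 0.9997 and 1.59 TPM, from 73, 54 and 97 counts. It overlaps 912 bases of Copg2 on the other strand, a gene with 2559, 3211 and 3664 counts, so reads in the shared stretch are uncertain. Ndn (ENSMUSG00000033585, chromosome 7, 62346569 to 62350262, plus strand) encodes necdin, a MAGE family protein that restrains cell division in neurons and blood stem cells. It had 0.653, 1.03 and 0.228 TPM, from 26, 52 and 13 counts. The interval of replicate 3 (0.121 to 0.390 TPM) lay below that of replicate 2 (0.768 to 1.35), so this low gene also varied beyond counting error. Ndn was above its neighbour Magel2 (0, 0 and 3 counts) by 0.66 ± 0.40 on the log2(TPM + 1) scale in 3 of 3 libraries (SD, n = 3, exact sign-flip permutation p = 0.25, adjusted 0.25).

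To place these levels on the sequence, RefSeq promoter windows (GRCm38.p6, 250 bases before to 50 after a transcript start) were read for 9 of the 10 genes, which have 16 windows, H19 being the other. The windows shown are those of the 2 genes with the highest RNA levels, Igf2r and Peg3, and of the 3 genes with the largest H3K27me3 values, Dlk1, Grb10 and Igf2. For Grb10 and Igf2, which have 2 and 4 windows, the window with the most CG dinucleotides is shown. Each sequence runs 5′ to 3′ on the gene's strand, and capitals mark CG dinucleotides, the sites of DNA methylation.
Igf2r, chr17:12769657-12769956, minus strand: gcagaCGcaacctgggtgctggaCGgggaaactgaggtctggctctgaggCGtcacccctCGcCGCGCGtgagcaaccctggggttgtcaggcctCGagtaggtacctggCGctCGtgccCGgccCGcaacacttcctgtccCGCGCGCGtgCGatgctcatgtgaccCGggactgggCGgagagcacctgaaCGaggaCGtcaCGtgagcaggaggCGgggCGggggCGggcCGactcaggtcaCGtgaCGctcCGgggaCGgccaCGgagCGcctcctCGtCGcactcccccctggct
Peg3, chr7:6730370-6730669, minus strand: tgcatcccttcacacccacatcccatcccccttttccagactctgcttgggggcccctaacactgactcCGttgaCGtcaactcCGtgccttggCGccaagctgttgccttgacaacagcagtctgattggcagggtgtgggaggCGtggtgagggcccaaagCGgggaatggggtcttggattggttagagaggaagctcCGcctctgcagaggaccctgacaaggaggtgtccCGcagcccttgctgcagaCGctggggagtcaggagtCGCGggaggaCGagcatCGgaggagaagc
Dlk1, chr12:109452573-109452872, plus strand: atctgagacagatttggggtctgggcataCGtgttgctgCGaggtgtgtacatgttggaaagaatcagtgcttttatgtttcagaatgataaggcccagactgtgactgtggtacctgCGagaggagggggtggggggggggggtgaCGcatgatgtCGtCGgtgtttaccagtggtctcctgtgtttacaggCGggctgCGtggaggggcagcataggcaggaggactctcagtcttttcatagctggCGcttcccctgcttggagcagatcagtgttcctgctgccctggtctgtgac
Grb10, chr11:12037371-12037670, minus strand: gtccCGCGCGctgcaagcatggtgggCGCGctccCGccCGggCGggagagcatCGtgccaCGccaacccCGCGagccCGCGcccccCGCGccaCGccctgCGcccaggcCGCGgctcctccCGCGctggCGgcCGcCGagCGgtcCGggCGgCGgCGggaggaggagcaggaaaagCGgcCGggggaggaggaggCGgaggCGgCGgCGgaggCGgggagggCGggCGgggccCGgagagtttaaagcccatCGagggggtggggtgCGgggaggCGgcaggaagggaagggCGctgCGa
Igf2, chr7:142658755-142659054, minus strand: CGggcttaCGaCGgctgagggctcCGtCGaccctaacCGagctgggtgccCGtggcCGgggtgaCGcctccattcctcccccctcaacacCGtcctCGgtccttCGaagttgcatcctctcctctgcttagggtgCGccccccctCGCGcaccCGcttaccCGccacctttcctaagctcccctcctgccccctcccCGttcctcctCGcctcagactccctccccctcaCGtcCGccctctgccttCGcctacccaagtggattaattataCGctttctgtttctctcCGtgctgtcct

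The number of CG dinucleotides was 45 in the Grb10 window, 34 in that of Igf2r, 24 in that of Igf2, 13 in that of Peg3 and 9 in that of Dlk1, where the median over 32851 windows was 7. The Igf2r window held more than most, at a percentile of 93.0, as did the Grb10 window shown, at 98.4, which was picked for its CG number. The other Grb10 window held 9, at the same percentile of 56.5 as that of Dlk1. Per gene, and not for these windows, the H3K27me3 value was 0 for Igf2r, with 20.9 TPM, and 30609 for Grb10, with 1.52 TPM. The other Igf2 windows held 2, 7 and 14 CG dinucleotides. Several motifs were searched on both strands of all 16 windows. The YY1 motif AAGATGGC was in 0 of them (2.75% of all windows), and the core of the CTCF motif in 0 (0.0365% of all windows). The motif GGGGCCCC of the PLAGL1 protein was in 1, that of Peg3 (1.08% of all windows). The letters TATAAA were in 1, a Meg3 window (13.6% of all windows), and CCAAT in 3, of Igf2, Meg3 and Peg3 (37.4% of all windows). GGGGCCCC is its own reverse complement, each motif was counted separately, and a match describes letters only.

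An H3K27me3 value above 0 was deposited for 6 of the 10 genes, where 8.06% of all 44548 genes had one. The value is a whole number whose unit, source cells and method are not stated. It was 65068 for Igf2, 30609 for Grb10, 18127 for Dlk1, 5543 for H19, 3984 for Plagl1 and 2550 for Meg3, and 0 for Igf2r, Peg3, Mest and Ndn. The median of all values above 0 was 7605, so Igf2, Grb10 and Dlk1 lay above it. A larger value than that of Igf2 was held by 85 genes. The mean TPM of the 6 genes with a value ran from 0.020 to 3.69, and that of the 4 genes at 0 from 0.636 to 20.9, so the ranges overlapped. Dlk1 combined a large value with RNA in every library: of 822 genes with a value at least as large as its own, 47 had a TPM of at least 1 in all 3 libraries.

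**Figure D3:**
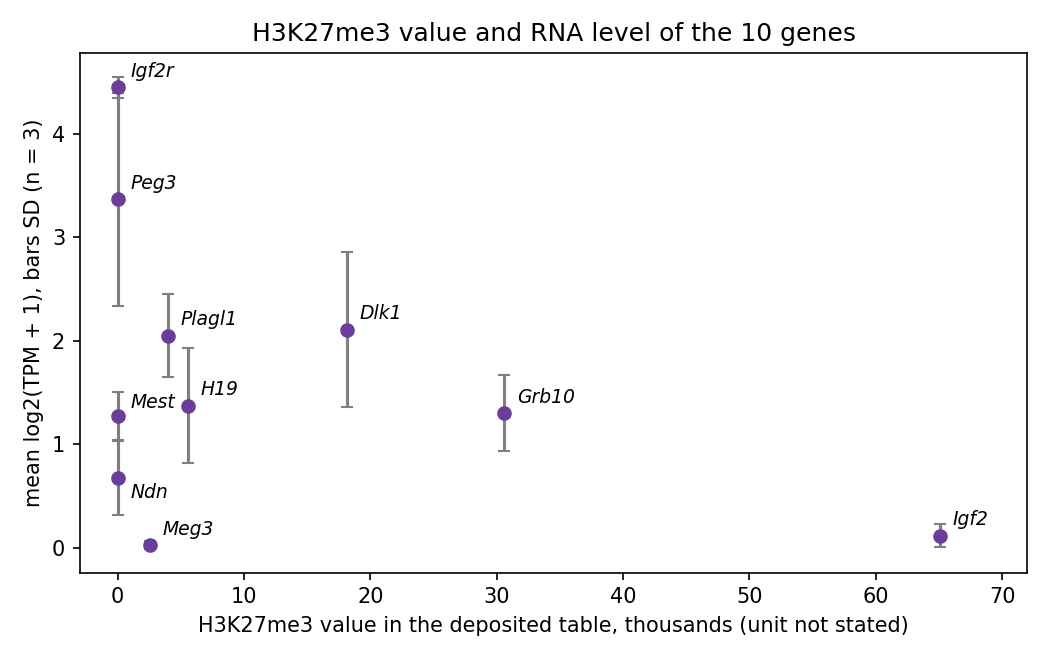
The x axis gives the deposited H3K27me3 value (numbers on the axis leave out the last 3 digits) and the y axis the mean log2(TPM + 1) with its SD over 3 libraries, for the 10 genes. Igf2, with the largest value of 65068, lies near 0 on the RNA axis, and Igf2r and Peg3, the highest in RNA, have a value of 0.

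Of the genes near the imprinted genes, only those overlapping them shared their value. A value per gene does not show how far the mark extends. Igf2 shared 65068 with Mir483 and Igf2os, both within or across the gene, while H19, 72623 bases away, had 5543 and Ins2, 11840 bases away on the other side, had 0. On chromosome 12, no neighbour shared the value of Dlk1, and at Meg3 the small RNA Gm27596, which starts 172 bases past a RefSeq start of Meg3, shared the 2550 of the gene. Mest itself was at 0, but the small non-coding genes Gm27522 and Gm27568 inside it had 5180. Gm27522 begins 912 bases past a RefSeq start of Mest and 10871 bases past the first base of its GENCODE annotation. Inside Plagl1, Gm27741, which begins 749 bases past its RefSeq start, had 2145 against 3984 for the gene. With genes inside counted, 7 of the 10 held a value, a count chosen after seeing the data.

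The authors' deposited table also gives a fold change per gene, taken from column names to compare these cells with libraries of the bulge (the stem cell niche of the follicle), which were not analysed here. Values above 0 mean higher in the Alpha6+/Sca1- libraries, since all 2552 of 2552 genes at 0 counts in these libraries had a negative one. The median over 24885 genes was -0.41 on the log2 scale. These include the 2552 genes at 0 counts, so it is not shown to be an offset of expressed genes. The deposited adjusted p-values are not stated to be relative to it. In the authors' deposited table, the adjusted p-value was under 0.05 for 55.5% of 20264 genes, with 23.6% of the 20264 higher and 31.9% lower. Of the 9 imprinted genes with an adjusted p-value, 3 were higher, 3 lower and 3 not past that limit, a share close to that of all genes. At a limit of 0.01 the authors' deposited table called Dlk1, Peg3 and Mest, 3 of the 9, where 46.1% of all genes were called.

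The genes higher in the authors' deposited table were Ndn, Dlk1 and H19. Dlk1 had a log2 fold change of 2.35 there with an adjusted p-value of 0.000574. Ndn, at 2.88 with 0.0338, and H19, at 2.14 with 0.0473, were past 0.05 in the authors' deposited table but not past 0.01, and Ndn rested on 13 to 52 counts per library. The lower genes were Mest, Peg3 and Igf2r. In the authors' deposited table Mest had a log2 fold change of -2.40 (adjusted p-value 8.95e-10) and Peg3 of -1.66 (3.87e-05), although Peg3 was highest in replicate 1 of these libraries. Igf2r had -0.61 (adjusted p-value 0.0248) in the authors' deposited table, close to the median of all genes. Igf2, Plagl1 and Grb10 had -1.53, -0.40 and -0.39 in the authors' deposited table, with adjusted p-values of 0.294, 0.311 and 0.425. Meg3 had 0.94 with no adjusted p-value.

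**Figure D4:**
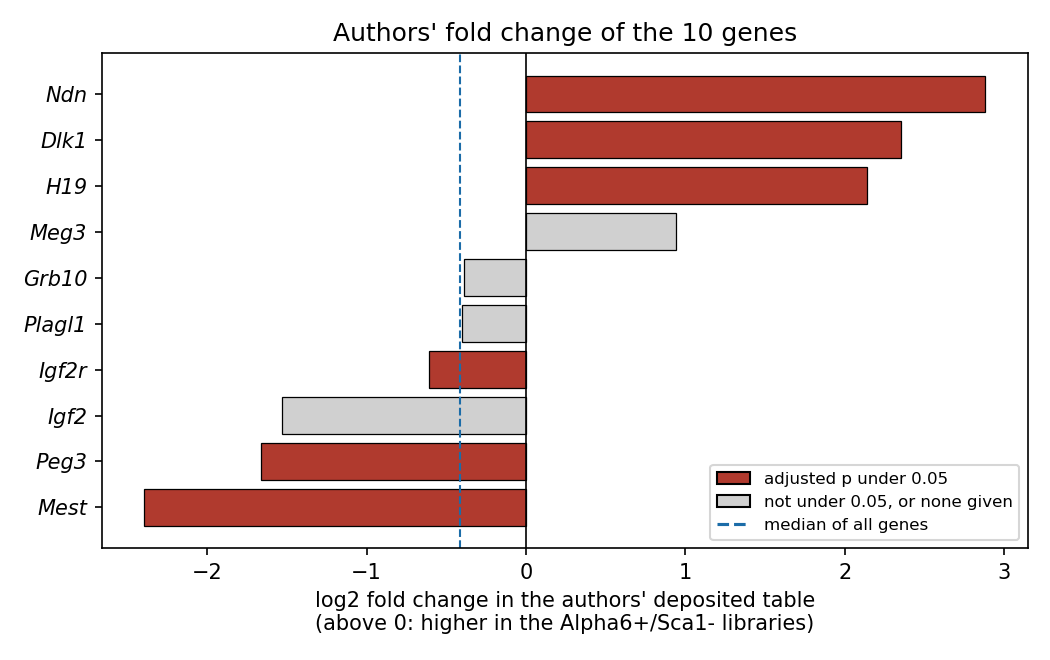
Bars give the log2 fold change of each gene in the authors' deposited table, with filled red bars where the adjusted p-value is under 0.05 and a dashed line at the median of all genes, -0.41. Ndn, Dlk1 and H19 extend to the right and Mest, Peg3 and Igf2r, in red, to the left.

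The deposited score is a product of 3 terms: the H3K27me3 number with 1 added, the fold change on the log2 scale, and -log10 of its adjusted p-value. By this score in the authors' deposited table Dlk1 ranked 24 of 20264 genes, with a score of 138266, and H19 ranked 154. Ndn, with an H3K27me3 value of 0, ranked 3729 in the authors' deposited table. Igf2 stood near the other end, at rank 20101, where its large H3K27me3 value multiplied a negative fold change that had not passed the limit of 0.05.

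The neighbours of the 10 genes showed that levels within a locus differed. On distal chromosome 7, H19 and Igf2 were low while Slc22a18, a transporter gene, had 29.9 TPM and Cdkn1c, the gene of the growth-restraining CDK inhibitor p57, had 11.3 ± 0.943 TPM (SD, n = 3). The antisense RNA Kcnq1ot1 of that region had 0.341, 0.138 and 0.104 TPM in replicates 1, 2 and 3, a mean of 0.194 TPM that becomes 0.121 TPM without replicate 1, and its log2 fold change in the authors' deposited table was -6.08. In the cluster on chromosome 12, Dlk1 was the only gene of the 6 examined whose mean TPM reached 1, and Rtl1 and Dio3 were at 0 counts in every library. In the Peg3 domain, Zim1 had 82, 18 and 19 counts and, like Peg3, its highest level in replicate 1, at 0.941, 0.163 and 0.152 TPM. Usp29 of the same domain had 12, 21 and 0 counts and was highest in replicate 2. The genes next to Ndn were low: Magel2 had 0, 0 and 3 counts, Mkrn3 61, 4 and 0, and Peg12 0, 0 and 8. Farther away in the same imprinted domain, Snrpn had 5.94 TPM and Ube3a, the ubiquitin ligase gene, 4.21 TPM. Copg2, a coat protein gene beside Mest, had 46.4, 45.8 and 46.4 TPM, and Ddc beside Grb10 was at 0 counts. Zim1, Usp29, Snrpn, Rtl1, Dio3, Mkrn3, Peg12 and Ddc were named after their values were seen.

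**Figure D5:**
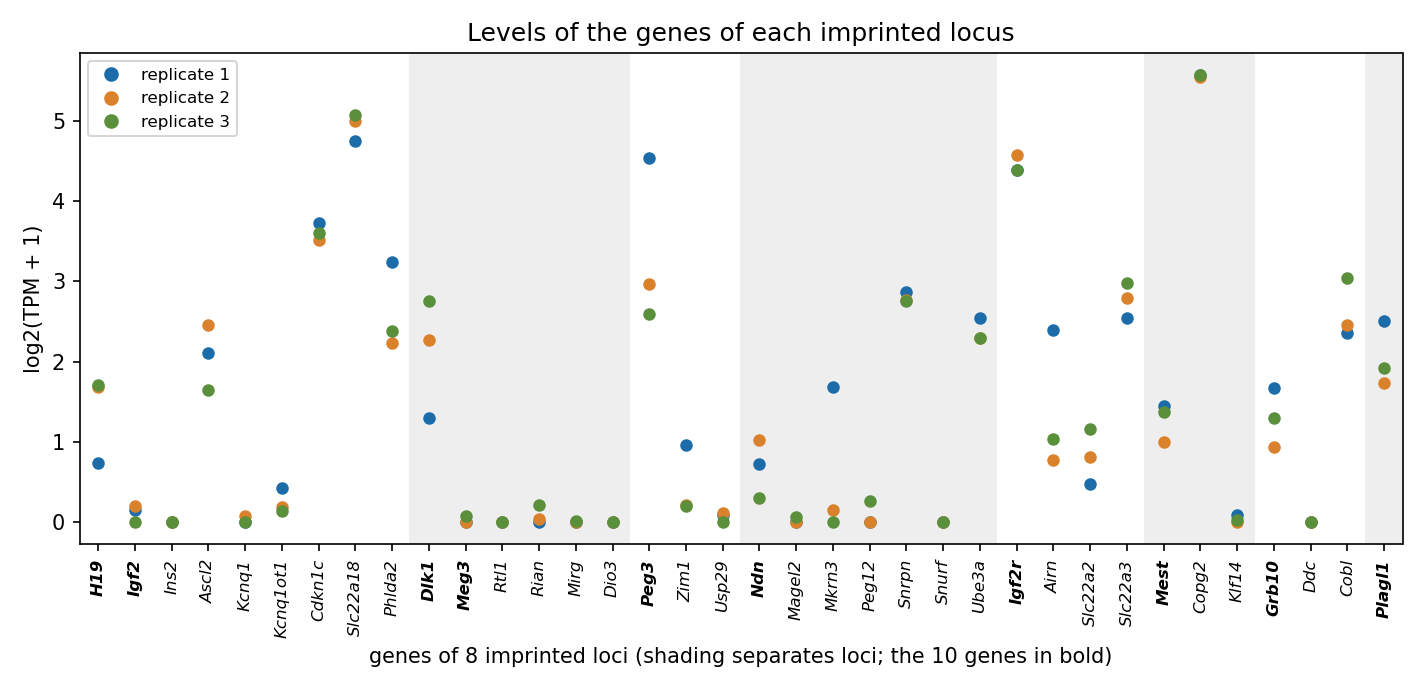
Each column is a gene of 8 imprinted loci, with the 10 genes studied in bold, and each point is the log2(TPM + 1) level in 1 library. Copg2, Slc22a18 and Igf2r are high in all libraries, whereas most genes of the Dlk1 and Ndn loci lie near 0.

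Over the wider list of other imprinted genes, 43 of 44 were in the table. Of these, 19 had a TPM of at least 1 in every library, where 27% of all genes did. Of the 30 with an adjusted p-value in the authors' deposited table, 7 were higher, 9 lower and 14 not past the limit of 0.05. Over all genes with an adjusted p-value, 23.6% were higher and 31.9% lower, so these counts lay near those shares. The median log2 fold change of the list was -0.07 over 38 genes, against -0.41 over all genes. Listed genes higher in the authors' deposited table included Slc22a18 (1.48), Blcap (1.38) and H13 (1.11), and those lower Airn (-3.23), Mcts2 (-2.30) and Zrsr1 (-1.24). Of the 20 whose mean TPM reached 1, 12 were highest in replicate 1, again near the 59.6% of all genes.

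The IGF and insulin pathway around Igf2 and Igf2r was then read from a list of 17 genes. The signalling receptor Igf1r had 12.5, 13.3 and 15.2 TPM in replicates 1, 2 and 3, below Igf2r in 3 of 3 libraries, with a log2(TPM + 1) difference of -0.58 ± 0.19 (SD, n = 3, exact sign-flip permutation p = 0.25, adjusted 0.25). Without division by gene length this difference turned to 0.22. Of the 7 IGF binding proteins, which hold the ligands outside cells, 5 were the highest genes of the list: Igfbp7 had 230 ± 32.5 TPM, Igfbp4 205 ± 33.6 TPM, Igfbp3 164 ± 44.2 TPM, Igfbp6 145 ± 32.4 TPM and Igfbp5 99.3 ± 45.6 TPM (SD, n = 3 each). The other binding proteins, Igfbp2 and Igfbp1, had 4.26 and 0.537 TPM, below the receptor substrate Irs2 at 44.7 ± 3.94 TPM (SD, n = 3). The ligand Igf1 had 0, 0 and 10 counts. Both ligand genes were thus at or near 0 in these cells, and Igf1 and Igf2 held H3K27me3 values of 43476 and 65068. In the authors' deposited table, 5 of the 14 genes with an adjusted p-value were higher, all of them binding proteins, 5 were lower, and 4 did not pass 0.05, where 55.5% of all genes were called, with a median log2 fold change of -0.09 over 17 genes. The lower genes included Igf1r (-1.58), Insr (-1.82) and the receptor substrate Irs1 (-2.14) in the authors' deposited table, whereas the more abundant substrate Irs2 had -0.09 there (adjusted p-value 0.704).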

How the data were processed

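RNA from 3 libraries of sorted Alpha6+/Sca1- cells was read from 1 table. It holds, as deposited by the authors, a whole-number read count per gene and library, and TPM values, which differed by at most 4.72e-06 from those recomputed from the counts and gene lengths. Per the submitters' processing notes, TopHat2, SAMtools, FastQC, DESeq and DESeq2 and the build mm10 (GRCm38) are named, with no role given. The counting tool and strand setting are not given in the sources used here. The authors also deposited a log2 fold change, an adjusted p-value, a score and an H3K27me3 number per gene, per the file headers. Of 20264 scores, 0 departed by more than 0.1% from the product of the other columns. Another 6 columns of per-sample values match no sample here and were not used.

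Levels were compared as log2(TPM + 1), which understates changes of low genes. Contrasts within libraries used two-sided exact sign-flip tests with Benjamini-Hochberg adjustment over 5. TMM factors came from edgeR 4.0.16 on the counts. The level comparison was tried on counts simulated with a fixed dispersion and no general shift of replicate 1. That trial therefore does not cover a shift like that of replicate 1 here. Coordinates are from GENCODE M21 (GRCm38), in which 44392 of 44625 identifiers were found. The named genes are all 10 members, listed genes whose mean TPM reached 10, with an authors' adjusted p-value under 0.05 or in a contrast, and the 3 genes nearest to the highest member. Others, among them Ins2 and the small genes inside or beside the members, were named for their position or after their values were seen. The members and lists were chosen with earlier results of these data known. Alternatives covered the pseudocount, scaling, limits and each library left out.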

Additional observations from a re-analysis of the deposited data

How the results depend on the processing

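Of 35 alternative values of the 5 contrasts, 34 kept their direction. The exception was Igf1r against Igf2r in CPM, without division by length, at 0.22. Leaving out each replicate gave -0.68 to -0.50 for that contrast, 4.30 to 4.38 for Igf2r against Igf2, 1.03 to 1.59 for H19 against Igf2, -2.48 to -1.78 for Meg3 against Dlk1 and 0.48 to 0.87 for Ndn against Magel2. None could pass the sign-flip test with 3 libraries. The number of the 10 genes detected in every library was 7 at a TPM of at least 0.5 and 2 at 5, and 4 to 6 with each replicate left out. At an adjusted p under 0.01, 3 genes were past the limit in the authors' deposited table instead of 6. With the median of values above 0 as the limit, 3 genes held an H3K27me3 value instead of 6. The pseudocount moved the contrasts with low genes most: from 5 to 0.1 it took Igf2r against Igf2 from 2.35 to 6.90, H19 against Igf2 from 0.39 to 3.20, Meg3 against Dlk1 from -0.76 to -4.81 and Ndn against Magel2 from 0.17 to 2.54, and Igf1r against Igf2r only from -0.47 to -0.61. With a pseudocount of 0.1 the SD on the log2 scale stayed within 1.5 times for 4 of 10 genes. No paired analysis was possible because there is only 1 group. Depth limits Igf2 and Meg3, whose libraries hold 0 to 14 counts.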

Other observations

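Of 7 relatives of the imprinted genes, some were higher in RNA than the gene they resemble, such as Dlk2, Maged1, Grb7 and Plagl2, and others, Plag1 and Magel2, were not. Dlk2, the paralog of Dlk1, had 60.6, 35.8 and 28.9 TPM in replicates 1, 2 and 3, against 1.46, 3.83 and 5.78 TPM for Dlk1, so the libraries did not overlap and the order of replicates differed. In the authors' deposited table Dlk2 had a log2 fold change of 2.18 and Dlk1 of 2.35. Maged1, a MAGE family relative of Ndn, had 185 ± 5.78 TPM (SD, n = 3). Plagl2 and Plag1, relatives of Plagl1, had 9.19 and 2.50 TPM on average (1.62 TPM for Plag1 without replicate 1), with log2 fold changes of -1.84 and -2.44 in the authors' deposited table. Grb7, a relative of Grb10, had 13.5 TPM and was not past 0.05 in the authors' deposited table. The mean TPM reached 1 in 6 of the 7, and all 6 were highest in replicate 1, where 59.6% of all genes were.

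Among 9 genes listed as imprint maintenance factors, Trim28, the corepressor recruited by zinc finger proteins, had 168 ± 10.7 TPM (SD, n = 3). Ctcf, which insulates Igf2 from the H19 enhancers on the maternal chromosome, had 41.6 TPM. Dnmt1, the maintenance DNA methyltransferase, had 22.1 TPM and Zfp445 42.2, 15.8 and 13.5 TPM, with replicate 1 the highest. Zfp57 had 17, 11 and 8 counts and Dppa3 0 in every library, both named after their values were seen. Of the 8 with an adjusted p-value in the authors' deposited table, 1 was higher (Trim28, 1.62), 2 were lower (Dnmt1, -0.51, and Smchd1, -2.05) and 5 were not past 0.05. Over all genes with an adjusted p-value, 55.5% were called.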
